A study of Homo sapiens with 8 samples.

Results

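The transcripts described here come from 52 genes whose proteins attach chromosomes to the spindle, hold back anaphase until attachment is complete, and divide the cell. They were chosen by gene symbol from the known roles of their proteins, with earlier results of these data in view, and each symbol matched a line of the count table, so that all 52 were found among 60622 gene lines. RNA was sequenced from 2 human prostate cancer cell lines, LNCaP, an androgen-responsive line from a lymph node metastasis, and PC3, an androgen-independent line from a bone metastasis. The groups were LNCaP with miR-375 overexpressed, LNCaP control, PC3 with miR-375 overexpressed and PC3 control, with 2 libraries in each. LNCaP grew with 10% serum and PC3 with 20%, so line and serum cannot be told apart in a comparison of the lines. The sources used here do not give the means or the duration of overexpression, nor what the control cells were given.

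A kinetochore is built in layers on centromeric chromatin that carries the histone variant CENP-A. An inner layer, the constitutive centromere-associated network (CCAN), holds an outer layer, the KMN network, whose NDC80 complex grips microtubules. Unattached kinetochores send out the checkpoint signal that keeps CDC20 from activating the anaphase-promoting complex, and the chromosome passenger complex corrects faulty attachments and later marks the division plane. Transcripts of these genes are low in resting cells and climb towards mitosis in dividing ones, largely through the DREAM and B-MYB-FOXM1 complexes, which act on a promoter element called the cell cycle genes homology region (CHR), and through NF-Y at CCAAT boxes. A microRNA such as miR-375 guides silencing by pairing its seed with sites that lie mostly in 3′ untranslated regions (UTRs).

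The sequence of the overexpressed microRNA is shown because its seed defines the sites searched for in the 52 genes. In RefSeq it lies at chr2:219001648-219001669 on the minus strand (GRCh38.p14), and capitals mark the seed, bases 2 to 8.
miR-375-3p: uUUGUUCGuucggcucgcguga
The transcript site is the reverse complement of that seed, CGAACAA, and counts as an 8mer when an A follows it, CGAACAAA. A 7mer-A1 site lacks the first C and reads GAACAAA. In 1 GENCODE 29 transcript a gene, 6 of the 52 (11.5%) had a site of at least this length in the 3′ UTR, against 14.1% of the 14923 other tested genes with a UTR. The sites are shown with the matching bases in capitals, on the GRCh38 assembly and on the transcript's strand, because they are the seed matches found in the UTRs searched.
CENPL, 7mer-A1 at chr1:173800274-173800299, minus strand: aagaaggatctagaaGAACAAAgaat
CENPM, 7mer-A1 at chr22:41938764-41938789, minus strand: tttaaggtttcctttGAACAAAaggt
CENPO, 8mer at chr2:24819780-24819805, plus strand: agctcacacatccaCGAACAAAtgaa
CENPO, 7mer-A1 at chr2:24822118-24822143, plus strand: tctctcctggtagctGAACAAAggtc
MAD2L1, 7mer-A1 at chr4:120055989-120056014, minus strand: gcaataaagtgttcaGAACAAActgg
MKI67, 7mer-A1 at chr10:128097220-128097245, minus strand: gctgactggatttgaGAACAAAtacc
SKA3, 7mer-A1 at chr13:21155108-21155133, minus strand: tccaacacagaaactGAACAAAatga
CENPO carried the lone 8mer, and the remaining sites were 7mer-A1. The other 46 members had no such site in the 3′ UTR searched. A match is a description of letters and not a measured site.

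Promoter sequences of RefSeq (GRCh38.p14, 250 bases before to 50 after each gene's start) were matched for 41 of the 52. They were searched on either strand for the CHR words TTTGAA and TTCGAA, for CCAAT, and for the E2F words TTTGGCGC, TTTCCCGC, TTTGCCGC and TTTCGCGC; the words may overlap each other. A CHR word was present in 28 of the 41 promoters (68.3%), against 16.6% of all 27305 promoters in the table and 11.7% of those of tested genes. At least 1 CCAAT box was present in 30 (73.2%), against 35.7% of all promoters. Both stood together in 21 (51.2%), against 6.58% of all promoters. An E2F word was present in 5 (12.2%; CENPA, CENPU, OIP5, NUSAP1 and MIS12), against 3.33% of all promoters, and none of the 3 motifs was found in 4 (9.76%; CENPE, CENPP, DSN1 and CENPI), against 52.5%. In 25 of the 28 a CHR word began within 50 bases of the gene start, a share that was not computed for all promoters. Promoters of 4 members are shown, with CHR and CCAAT matches in capitals: ANLN, the most reduced member, CDC20 and PLK1, which hold both motifs, and MIS12, one of the least reduced members.
ANLN promoter, chr7:36389612-36389911, plus strand: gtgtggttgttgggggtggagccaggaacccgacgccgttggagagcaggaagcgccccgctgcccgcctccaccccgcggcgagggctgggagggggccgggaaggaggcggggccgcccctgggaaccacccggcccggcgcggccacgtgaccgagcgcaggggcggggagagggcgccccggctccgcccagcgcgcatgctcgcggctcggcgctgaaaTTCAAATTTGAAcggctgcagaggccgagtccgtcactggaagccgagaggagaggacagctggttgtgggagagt
CDC20 promoter, chr1:43358731-43359030, plus strand: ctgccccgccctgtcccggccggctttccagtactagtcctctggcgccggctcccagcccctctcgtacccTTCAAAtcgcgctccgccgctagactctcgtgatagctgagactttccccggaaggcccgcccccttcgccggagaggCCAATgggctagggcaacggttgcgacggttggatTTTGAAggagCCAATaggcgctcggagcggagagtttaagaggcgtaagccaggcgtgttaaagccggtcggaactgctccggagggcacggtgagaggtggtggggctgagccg
PLK1 promoter, chr16:23678639-23678938, plus strand: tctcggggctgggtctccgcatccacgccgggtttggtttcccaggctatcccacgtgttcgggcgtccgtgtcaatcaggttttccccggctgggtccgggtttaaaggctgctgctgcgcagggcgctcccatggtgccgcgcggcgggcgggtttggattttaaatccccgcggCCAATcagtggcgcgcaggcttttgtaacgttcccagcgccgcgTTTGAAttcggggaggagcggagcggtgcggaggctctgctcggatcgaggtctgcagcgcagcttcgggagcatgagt
MIS12 promoter, chr17:5486124-5486423, plus strand: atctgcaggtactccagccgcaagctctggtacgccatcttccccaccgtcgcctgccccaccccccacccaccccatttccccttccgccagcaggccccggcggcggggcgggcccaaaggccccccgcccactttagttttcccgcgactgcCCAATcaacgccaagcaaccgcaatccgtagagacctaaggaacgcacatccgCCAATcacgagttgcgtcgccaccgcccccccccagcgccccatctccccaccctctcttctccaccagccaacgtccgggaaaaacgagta
In the ANLN sequence a pair of CHR words lies side by side, the first beginning at position -26 counted from the gene start. PLK1 has a CHR word at -29 and a CCAAT box at -73. MIS12 has 2 CCAAT boxes and an E2F word but neither CHR word. A match shows that the letters are there and nothing about what binds them.

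Library totals ran from 33973861 to 41890528 counts, and levels are given as CPM, a gene's counts relative to the library's total after TMM scaling. The labelled lines carried their own markers. KLK3, which encodes prostate-specific antigen, had 1797 and 1861 CPM in LNCaP miR-375 libraries, against 2811 and 2762 CPM in LNCaP controls. KLK3 had 0 counts in every PC3 library. CAV1, a PC3 marker, had 178 and 172 CPM in PC3 miR-375 libraries, against 342 and 338 CPM in PC3 controls. In LNCaP libraries CAV1 had at most 1.87 CPM. VIM, FOSL1, CD44 and TGFBI were also higher in each PC3 library than in any LNCaP library. MIR375 had 0 counts in all 8 libraries, which allows up to 3 counts in each, and since poly(A) libraries do not capture a mature microRNA this checks nothing about the labels. Leukocyte markers (PTPRC, CD3E, CD14, LST1) summed to between 0.229 and 1.73 CPM, with CD3E at 0 counts in 7 of 8 libraries. Endothelial markers (PECAM1, VWF, CDH5) summed to 6.10 and 6.78 CPM in LNCaP miR-375 libraries, against 4.78 and 4.87 CPM in LNCaP controls, and to 31.9 and 33.4 CPM in PC3 miR-375 libraries, against 45.4 and 45.2 CPM in PC3 controls. Fibroblast markers (COL1A1, COL3A1, DCN, LUM) summed to 48.7 and 54.2 CPM in LNCaP miR-375 libraries, against 42.7 and 50.0 CPM in LNCaP controls. In PC3 the fibroblast sum was 392 and 371 CPM in miR-375 libraries, against 141 and 147 CPM in controls, nearly all of it COL1A1, and DCN was at 0 counts in both PC3 controls. These are cultured lines, and the part of these markers in the results was not tested. Nothing in the labels ties the 2 libraries of a group to separate cultures; p-values therefore reflect the spread between libraries and that spread may be technical.

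In LNCaP, 50 of the 52 transcripts were lower with miR-375 than in controls and none was higher, at an adjusted p under 0.05 in edgeR's quasi-likelihood test over all 21066 tested genes. Of all tested genes, 18.7% passed as lower. The median change of the 52 was -0.96 on the log2 scale, 1.94-fold lower, against a median of 0 over all tested genes. A fall of 2-fold or more was found in 24 members, which 2.21% of all tested genes showed. PRC1 and NUSAP1 did not pass. All 52 passed the filter on low counts. In bulk RNA, fewer dividing cells and less of each transcript per cell cannot be told apart.

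In PC3, 50 members were likewise lower with miR-375 and none was higher, where 20.8% of all tested genes passed as lower. The median change was -1.19, 2.28-fold lower, against 0.02 over all tested genes. A fall of 2-fold or more was found in 42 members, against 3.65% of all tested genes. MIS12 and NUSAP1 did not pass in PC3. NUSAP1 was the lone member with a positive change in either line (unadjusted p = 0.950 in LNCaP and 0.143 in PC3 in edgeR), so 0 members were higher at an unadjusted p under 0.05, and DESeq2 and limma-voom also called 0 higher. The transcripts of 49 members were lower in both lines, as were those of 10.5% of all tested genes. Summed over the 52, the level was 1404 and 1374 CPM in LNCaP miR-375 libraries, against 2729.7 and 2750.45 CPM in LNCaP controls. In PC3 the sum was 1728 and 1712 CPM in miR-375 libraries, against 3985 and 4009 CPM in controls. Across the 52 genes, which are not independent of one another, changes in the 2 lines had correlations of 0.45 (Spearman) and 0.68 (Pearson). Over all tested genes the correlations were 0.28 (Spearman) and 0.14 (Pearson). The member values include NUSAP1 (0.05 in LNCaP and 1.12 in PC3), which had 6 to 26 counts a library.

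**Figure D1:**
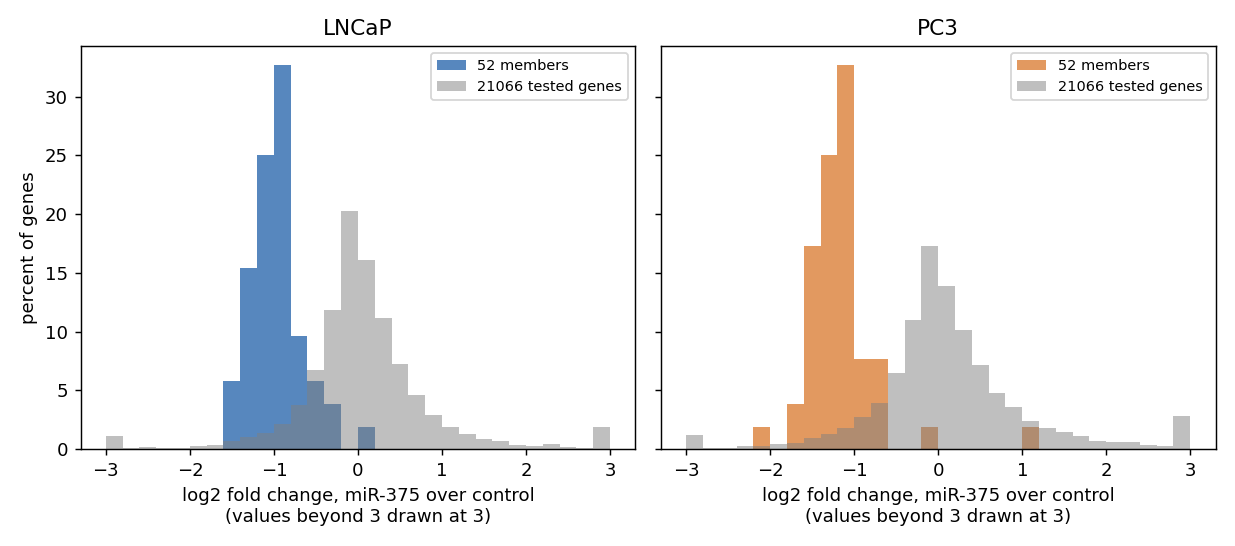
Share of genes (percent, y axis) by log2 fold change of miR-375 over control (x axis) in LNCaP and PC3, for the 52 members in colour and all 21066 tested genes in grey. The members lie to the left of the bulk of genes, with medians of -0.96 in LNCaP and -1.19 in PC3, and NUSAP1 is the lone member right of 0.

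**Figure D2:**
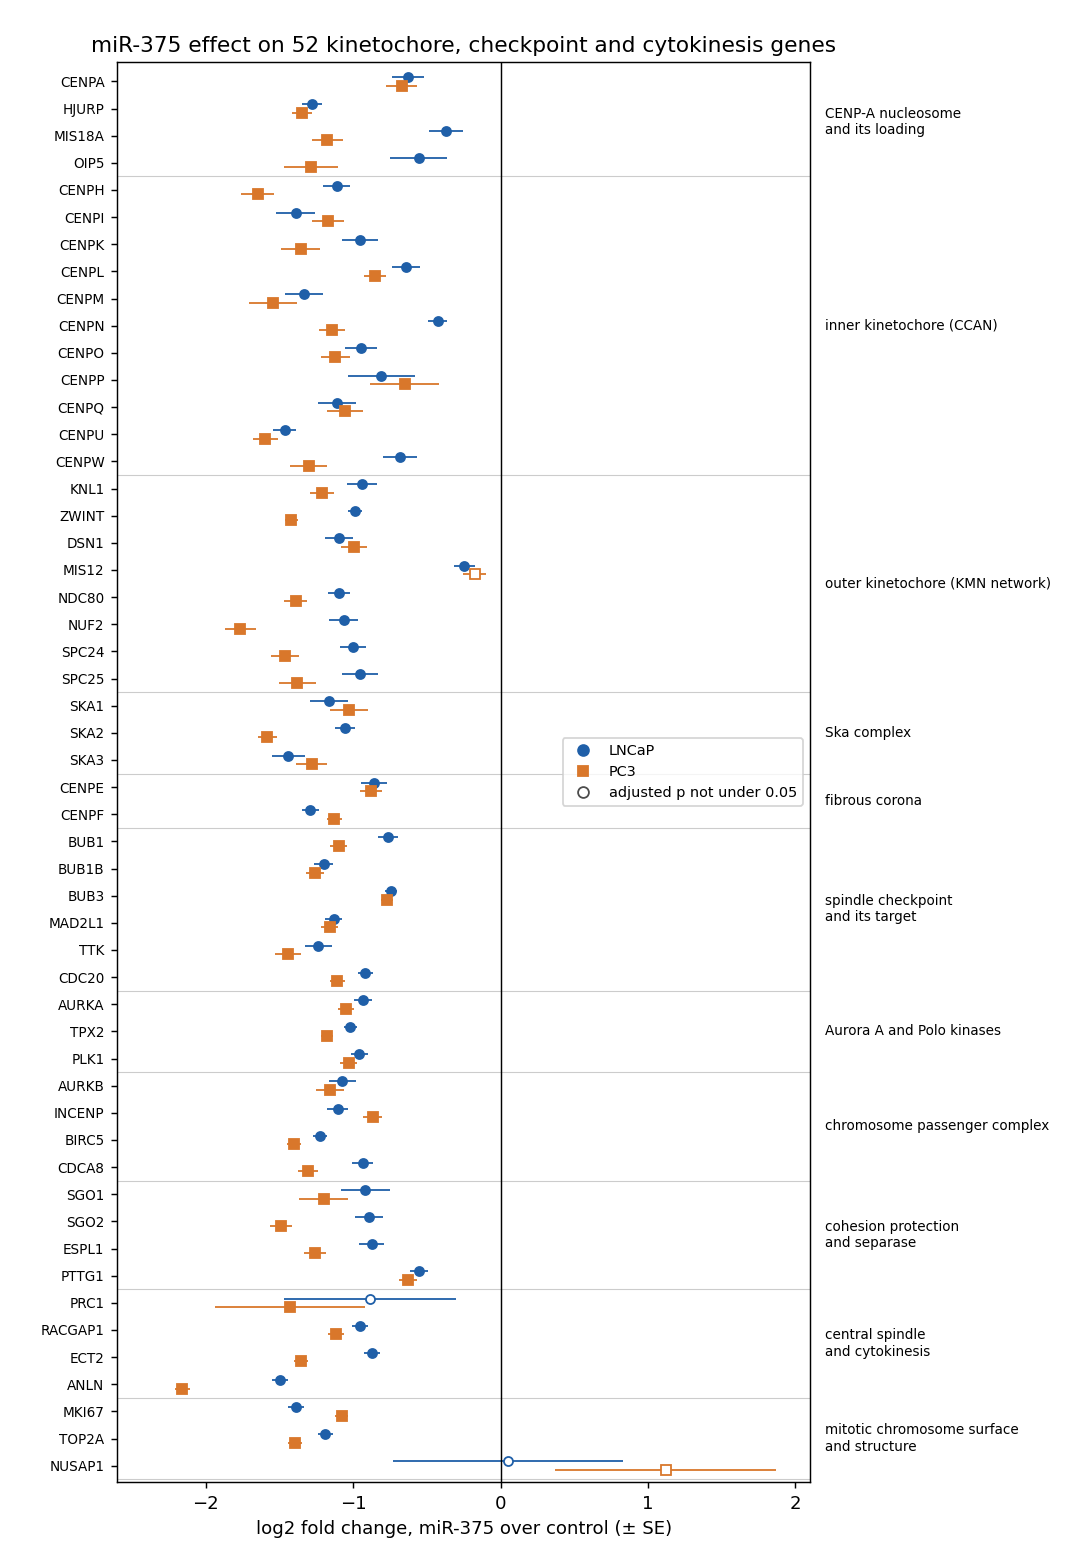
Log2 fold change of miR-375 over control (x axis) with its standard error for each of the 52 genes, grouped by role, in LNCaP (circles) and PC3 (squares). Open symbols did not pass an adjusted p of 0.05: PRC1 in LNCaP, MIS12 in PC3 and NUSAP1 in both.

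All 4 genes that mark centromeres or load CENP-A fell in each line, with a median change of -0.59 in LNCaP and -1.23 in PC3. HJURP, the chaperone that delivers CENP-A to centromeres, had 23.3 and 21.8 CPM in LNCaP miR-375 libraries, against 54.2 and 55.3 CPM in LNCaP controls. Its change was -1.28 ± 0.07 (adjusted p = 3.14e-17), given here and below as log2 fold change ± standard error. HJURP had 23.8 and 24 CPM in PC3 miR-375 libraries, against 60.8 and 60.9 CPM in PC3 controls, a change of -1.35 ± 0.07 (adjusted p = 9.31e-19). The HJURP libraries of the 2 conditions lay far apart in either line. MIS18A, a subunit of the complex that licenses centromeres for new CENP-A, had 11 and 13.1 CPM in LNCaP miR-375 libraries, against 15.5 and 15.6 CPM in LNCaP controls, a change of -0.37 ± 0.11 (adjusted p = 0.00913). MIS18A had 11.9 and 12.8 CPM in PC3 miR-375 libraries, against 28.9 and 26.8 CPM in PC3 controls, a change of -1.18 ± 0.11 (adjusted p = 7.94e-12). The MIS18A groups did not overlap in LNCaP but were close, and the LNCaP call was lost on library totals (-0.25) and without LNCaP control 1 (-0.33), LNCaP control 2 (-0.31) or LNCaP miR-375 replicate 1 (-0.20). OIP5, another subunit of that complex, changed by -0.56 in LNCaP and -1.29 in PC3; its LNCaP call (adjusted p = 0.0234) was lost on library totals, without the filter on low counts, with DESeq2 and without any 1 of the 4 LNCaP libraries. CENPA itself fell by 0.63 in LNCaP and by 0.67 in PC3 on the log2 scale.

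The 11 inner kinetochore genes fell in each line, with medians of -0.95 in LNCaP and -1.17 in PC3. CENPU, a subunit that recruits PLK1 to kinetochores, had 21.9 and 21.4 CPM in LNCaP miR-375 libraries, against 59.8 and 59.5 CPM in LNCaP controls, a change of -1.46 ± 0.08 (adjusted p = 2.00e-17). CENPU had 11.1 and 9.85 CPM in PC3 miR-375 libraries, against 31.6 and 31.8 CPM in PC3 controls, a change of -1.60 ± 0.09 (adjusted p = 6.46e-18). In each line the CENPU libraries with miR-375 lay far under the controls and close to each other. CENPH, of the CENP-H, -I, -K and -M assembly, had 21.8 and 22.5 CPM in LNCaP miR-375 libraries, against 49.1 and 46.5 CPM in LNCaP controls, a change of -1.11 ± 0.09 (adjusted p = 1.18e-12). CENPH had 4.81 and 5.55 CPM in PC3 miR-375 libraries, against 17.1 and 15.4 CPM in PC3 controls. Its change of -1.65 ± 0.11 (adjusted p = 3.37e-15) was the deepest fall of the layer in that line, with CENPU and CENPM within its standard error. Its partners CENPI, CENPK and CENPM fell by 0.95 to 1.39 in LNCaP and by 1.17 to 1.54 in PC3 on the log2 scale. CENPN, which reads the CENP-A nucleosome together with CENPL, had 59.3 and 63.3 CPM in LNCaP miR-375 libraries, against 80.2 and 84.6 CPM in LNCaP controls, a change of -0.43 ± 0.07 (adjusted p = 1.80e-06). CENPN had 9.93 and 8.57 CPM in PC3 miR-375 libraries, against 19.8 and 21 CPM in PC3 controls, a change of -1.14 ± 0.09 (adjusted p = 7.58e-14). CENPN was thus 1.34-fold lower in LNCaP and 2.21-fold lower in PC3. CENPL changed by -0.64 in LNCaP and -0.85 in PC3, CENPQ by -1.11 in LNCaP and -1.06 in PC3, and CENPW, a histone-fold subunit, by -0.68 in LNCaP and -1.30 in PC3. CENPP, with few counts at 4.56 and 4.84 CPM in LNCaP controls and 3.22 and 3.92 CPM in PC3 controls, changed by -0.81 in LNCaP and -0.65 in PC3. Its LNCaP call was lost without LNCaP control 2 (-0.71), LNCaP miR-375 replicate 1 (-0.75) or replicate 2 (-0.78), and its PC3 call without PC3 control 2 (-0.51), PC3 miR-375 replicate 1 (-0.71) or replicate 2 (-0.60).

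Of the 8 outer kinetochore genes, all fell in LNCaP (median -0.99) and 7 in PC3 (median -1.38). NDC80, which binds microtubules, had 25.3 and 23.8 CPM in LNCaP miR-375 libraries, against 53.5 and 51.6 CPM in LNCaP controls, a change of -1.10 ± 0.07 (adjusted p = 1.10e-14). NDC80 had 16.5 and 17.4 CPM in PC3 miR-375 libraries, against 44.8 and 43.9 CPM in PC3 controls, a change of -1.39 ± 0.08 (adjusted p = 1.10e-17). NUF2, its partner in the microtubule-binding head, had 16.6 and 14.6 CPM in LNCaP miR-375 libraries, against 32.1 and 33.2 CPM in LNCaP controls, a change of -1.06 ± 0.10 (adjusted p = 3.87e-11). NUF2 had 9.29 and 7.71 CPM in PC3 miR-375 libraries, against 28.1 and 29.7 CPM in PC3 controls, a change of -1.76 ± 0.10 (adjusted p = 8.89e-17), which was the deepest fall of the 8. SPC24 and SPC25, which tie the complex to the inner layers, changed by -1.0 and -0.95 in LNCaP and by -1.46 and -1.38 in PC3. The 4 subunits are built in equal numbers into the complex. Per kilobase of all annotated exons merged, their mean levels lay between 4.65 and 7.49 CPM in LNCaP miR-375 libraries, against 9.71 to 15.0 CPM in LNCaP controls. In PC3 the same range was 2.53 to 4.70 CPM per kilobase in miR-375 libraries, against 8.60 to 12.3 in controls. Merged exons can be longer than the transcript expressed, so whether the 4 levels match was not tested. ZWINT, which binds the checkpoint scaffold KNL1, had 41.3 and 41.7 CPM in LNCaP miR-375 libraries, against 83.6 and 80.7 CPM in LNCaP controls, a change of -0.99 ± 0.05 (adjusted p = 1.28e-18). ZWINT had 106 and 102 CPM in PC3 miR-375 libraries, against 276 and 282 CPM in PC3 controls, a change of -1.42 ± 0.04 (adjusted p = 1.56e-25). The replicates of ZWINT differed by a few CPM only. KNL1 changed by -0.94 in LNCaP and -1.21 in PC3.

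MIS12, the namesake of the complex that bridges inner and outer kinetochore, was the exception among the 8 members listed for the layer. It had 38.2 and 39.6 CPM in LNCaP miR-375 libraries, against 45.8 and 46.3 CPM in LNCaP controls, a change of -0.25 ± 0.07 (adjusted p = 0.00847). MIS12 had 21.4 and 23.4 CPM in PC3 miR-375 libraries, against 25.7 and 24.9 CPM in PC3 controls, a change of -0.17 ± 0.08 (adjusted p = 0.0713). The groups lay next to each other in each line without overlap. The LNCaP call was lost on library totals (-0.12), without the filter (-0.18), with DESeq2 (-0.21) and without any 1 LNCaP library (from -0.22 to -0.17), and the PC3 call was gained in 7 settings, among them without PC3 miR-375 replicate 2 (-0.24) and with counts halved (-0.20). DSN1, of the same complex, changed by -1.10 in LNCaP and -1.0 in PC3. NSL1 and PMF1, subunits of that complex that are not among the members, changed little. NSL1 changed by -0.0054 in LNCaP, which did not pass, and by -0.20 in PC3, which passed. PMF1 changed by -0.27 in LNCaP and -0.20 in PC3 and passed in neither line. Both were named after their values were seen.

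The 3 Ska genes, whose complex helps kinetochores follow shrinking microtubule ends, fell in each line. SKA3 had 9.38 and 9.36 CPM in LNCaP miR-375 libraries, against 28 and 22.9 CPM in LNCaP controls, a change of -1.44 ± 0.11 (adjusted p = 3.22e-13). SKA3 had 12 and 11 CPM in PC3 miR-375 libraries, against 28.3 and 27.6 CPM in PC3 controls, a change of -1.28 ± 0.11 (adjusted p = 8.45e-13). The 2 LNCaP controls of SKA3 differed from each other more than the 2 miR-375 libraries did, and both lay above them. SKA2 had 24.2 and 22.8 CPM in LNCaP miR-375 libraries, against 46.8 and 50.7 CPM in LNCaP controls, a change of -1.05 ± 0.07 (adjusted p = 4.72e-15). SKA2 had 32.6 and 29.9 CPM in PC3 miR-375 libraries, against 93.3 and 94.1 CPM in PC3 controls, a change of -1.58 ± 0.06 (adjusted p = 1.58e-21), which is 3.00-fold lower. SKA1 changed by -1.16 in LNCaP and -1.03 in PC3. Of the corona genes, CENPF, a large microtubule-binding protein, had 26.8 and 28.1 CPM in LNCaP miR-375 libraries, against 66.4 and 67.8 CPM in LNCaP controls, a change of -1.29 ± 0.06 (adjusted p = 5.97e-20). CENPF had 71.4 and 70.7 CPM in PC3 miR-375 libraries, against 153 and 158 CPM in PC3 controls, a change of -1.13 ± 0.05 (adjusted p = 1.17e-20). CENPE, the kinesin that carries chromosomes to the spindle equator, changed by -0.86 in LNCaP and -0.88 in PC3.

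All 6 genes of the spindle checkpoint and its target fell in each line, with medians of -1.03 in LNCaP and -1.13 in PC3. TTK, the kinase MPS1 that starts the signal, had 13.8 and 13.1 CPM in LNCaP miR-375 libraries, against 32.4 and 31 CPM in LNCaP controls, a change of -1.24 ± 0.09 (adjusted p = 9.29e-14). TTK had 14.4 and 14.4 CPM in PC3 miR-375 libraries, against 40.3 and 37.7 CPM in PC3 controls, a change of -1.44 ± 0.09 (adjusted p = 1.90e-16). TTK had the largest change of the 6 in each line, though in LNCaP BUB1B was within its standard error, and the TTK libraries of the 2 conditions did not overlap. BUB1B and MAD2L1, which as proteins bind and hold CDC20, changed by -1.20 and -1.13 in LNCaP and by -1.26 and -1.16 in PC3. CDC20 itself, the activator they restrain, changed by -0.92 in LNCaP and -1.11 in PC3, so transcripts of the inhibitors and of their target were lower together. BUB3, which carries BUB1 and BUB1B to kinetochores, had the smallest change of the 6 and fell by 0.74 in LNCaP and by 0.77 in PC3 on the log2 scale. The kinase BUB1 was close to it in LNCaP, with -0.76, and changed by -1.10 in PC3.

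Among the spindle kinases and their activator, TPX2, which switches on Aurora A at spindle microtubules, had 67.5 and 67.1 CPM in LNCaP miR-375 libraries, against 138 and 135 CPM in LNCaP controls, a change of -1.02 ± 0.04 (adjusted p = 6.13e-20). TPX2 had 103 and 99.8 CPM in PC3 miR-375 libraries, against 223 and 235 CPM in PC3 controls, a change of -1.18 ± 0.04 (adjusted p = 4.80e-23). AURKA and PLK1 fell by 0.93 and 0.96 in LNCaP and by 1.05 and 1.03 in PC3 on the log2 scale. The difference between the lines did not pass for TPX2 (0.16, adjusted p = 0.0572), AURKA (adjusted p = 0.355) or PLK1 (adjusted p = 0.593), which does not show that the lines acted alike. The 4 genes of the chromosome passenger complex fell in each line. BIRC5, which encodes survivin, had 64.8 and 61.8 CPM in LNCaP miR-375 libraries, against 150.4 and 145 CPM in LNCaP controls, a change of -1.22 ± 0.05 (adjusted p = 1.14e-21). BIRC5 had 69.7 and 68 CPM in PC3 miR-375 libraries, against 178 and 186 CPM in PC3 controls, a change of -1.40 ± 0.05 (adjusted p = 2.58e-24). The kinase AURKB and the borealin gene CDCA8 changed by -1.07 and -0.93 in LNCaP and by -1.16 and -1.31 in PC3. INCENP, the scaffold of the complex, changed by -1.11 in LNCaP and -0.87 in PC3.

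The genes that guard and cut cohesin fell as well. SGO1, a shugoshin that protects centromeric cohesin, had 5.29 and 5.65 CPM in LNCaP miR-375 libraries, against 10.1 and 10.5 CPM in LNCaP controls, a change of -0.92 ± 0.17 (adjusted p = 2.71e-05). SGO1 had 4.31 and 4.53 CPM in PC3 miR-375 libraries, against 12 and 8.31 CPM in PC3 controls, a change of -1.20 ± 0.17 (adjusted p = 1.58e-07). The 2 PC3 controls of SGO1 differed by several CPM but both lay above the miR-375 libraries. SGO2, the other shugoshin, had 13.2 and 10.5 CPM in LNCaP miR-375 libraries, against 21.5 and 22.7 CPM in LNCaP controls, a change of -0.89 ± 0.09 (adjusted p = 5.68e-10). SGO2 had 28.2 and 26.4 CPM in PC3 miR-375 libraries, against 76.2 and 77.1 CPM in PC3 controls, a change of -1.49 ± 0.08 (adjusted p = 2.49e-18). ESPL1, the cohesin-cutting protease separase, changed by -0.88 in LNCaP and -1.26 in PC3, and its inhibitor PTTG1, securin, by -0.55 in LNCaP and -0.63 in PC3. PTTG1 had the smallest change of the 4 genes in each line.

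For cytokinesis, ANLN, the anillin that organises the contractile ring, had the largest fall of the 52 in each line, although in LNCaP that of CENPU was within its standard error. ANLN had 26.7 and 27.2 CPM in LNCaP miR-375 libraries, against 75 and 77 CPM in LNCaP controls, a change of -1.50 ± 0.06 (adjusted p = 6.08e-22). ANLN had 62.2 and 55.8 CPM in PC3 miR-375 libraries, against 262 and 264 CPM in PC3 controls, a change of -2.16 ± 0.05 (adjusted p = 4.99e-29), which is 4.46-fold lower. ECT2, the exchange factor that activates RhoA at the division plane, had 52.9 and 47.1 CPM in LNCaP miR-375 libraries, against 89.3 and 93.8 CPM in LNCaP controls, a change of -0.87 ± 0.05 (adjusted p = 4.40e-16). ECT2 had 79.5 and 81.9 CPM in PC3 miR-375 libraries, against 208 and 204 CPM in PC3 controls, a change of -1.35 ± 0.05 (adjusted p = 4.24e-23). RACGAP1, which brings ECT2 to the central spindle, changed by -0.95 in LNCaP and -1.12 in PC3. On mitotic chromosomes, MKI67, which encodes the Ki-67 protein that coats their surface, had 29.3 and 31.1 CPM in LNCaP miR-375 libraries, against 76.3 and 81.8 CPM in LNCaP controls, a change of -1.39 ± 0.05 (adjusted p = 8.15e-22). MKI67 had 112 and 114 CPM in PC3 miR-375 libraries, against 239 and 237 CPM in PC3 controls, a change of -1.08 ± 0.04 (adjusted p = 2.13e-21). The MKI67 libraries of the 2 conditions did not overlap in either line. TOP2A, which untangles sister DNA, had 57.5 and 52.4 CPM in LNCaP miR-375 libraries, against 119 and 132 CPM in LNCaP controls, a change of -1.19 ± 0.05 (adjusted p = 3.94e-20). TOP2A had 102 and 107 CPM in PC3 miR-375 libraries, against 274 and 277 CPM in PC3 controls, a change of -1.40 ± 0.05 (adjusted p = 7.00e-24).

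**Figure D3:**
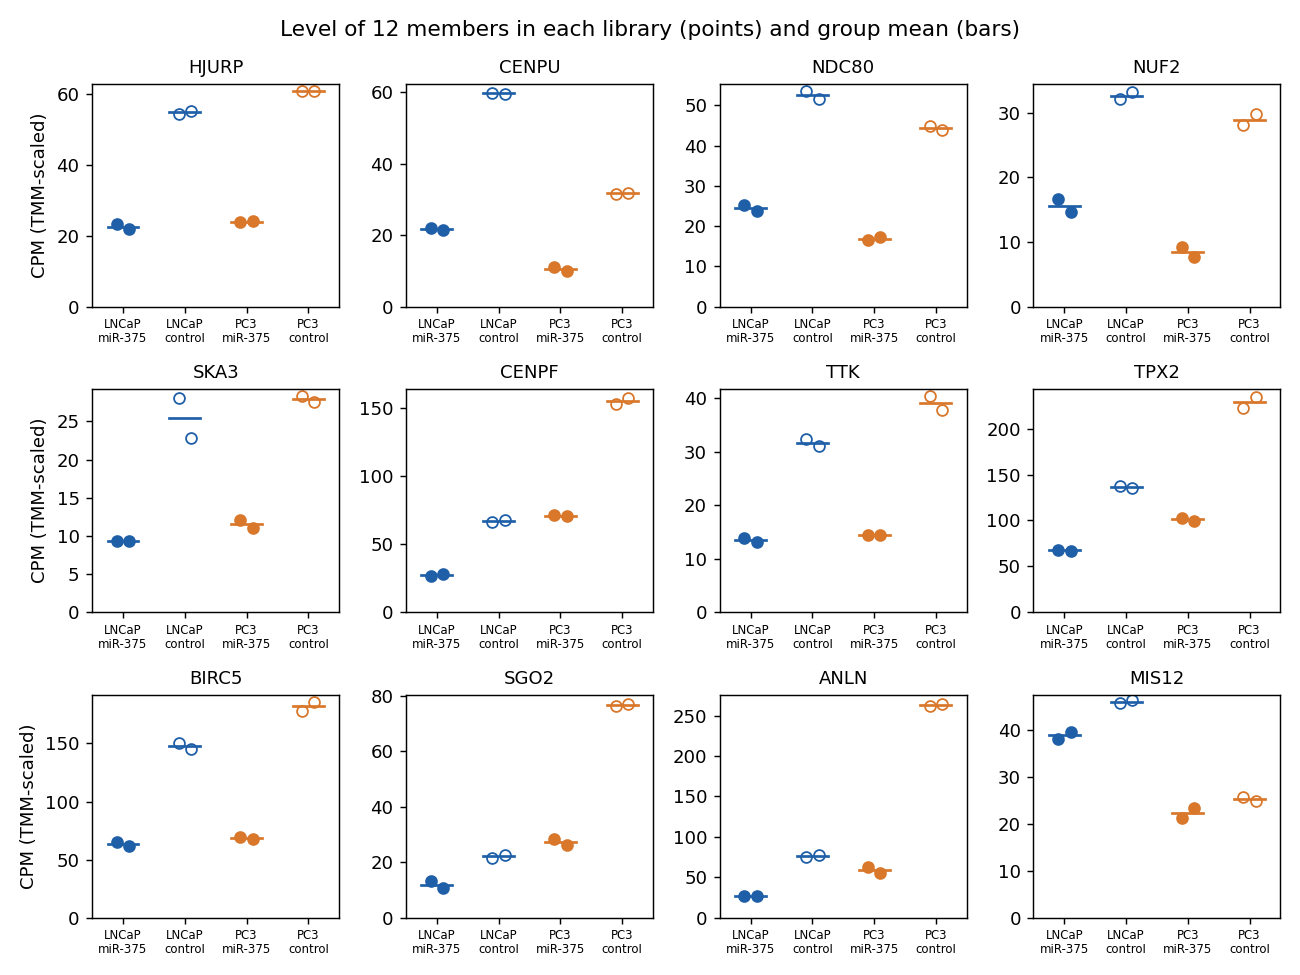
Level of 12 members in CPM (y axis, from 0) in each library (points) with the mean of the 2 libraries (bars), by line and condition. In the first 11 panels the miR-375 libraries lie well under their controls, while MIS12 (38.2 and 39.6 CPM in LNCaP miR-375 libraries, against 45.8 and 46.3 CPM in LNCaP controls) moves little.

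PRC1, which bundles microtubules of the central spindle, and NUSAP1, a spindle protein that binds microtubules near chromosomes, had nearly no counts in any library. NUSAP1 had 7 and 14 counts in LNCaP miR-375 libraries, against 7 and 12 in LNCaP controls, and 14 and 26 counts in PC3 miR-375 libraries, against 6 and 11 in PC3 controls. Its changes were 0.05 ± 0.78 (adjusted p = 0.999) in LNCaP and 1.12 ± 0.75 (adjusted p = 0.244) in PC3, and the LNCaP sign turned with limma-voom (-0.0056) and without LNCaP control 1 (-0.20) or LNCaP miR-375 replicate 2 (-0.50). PRC1 had 7 and 19 counts in LNCaP miR-375 libraries, against 24 and 21 in LNCaP controls, and 11 and 35 counts in PC3 miR-375 libraries, against 57 and 59 in PC3 controls. Its change was -0.89 ± 0.58 (adjusted p = 0.275) in LNCaP and -1.43 ± 0.51 (adjusted p = 0.0216) in PC3, and the PC3 call was lost with DESeq2 (-1.45) and without PC3 control 2 (-1.39) or PC3 miR-375 replicate 1 (-0.83). In GENCODE 29, NUSAP1 (chr15:41332694-41381050, plus strand) shares 62.2% of its exon bases on the same strand with AC087721.2, which had 0 counts in all 8 libraries. PRC1 (chr15:90966038-90995629, minus strand) shares 57.6% with AC068831.7. That gene's ID appears in the count table as AC068831.8, with 55 and 67 counts in LNCaP miR-375 libraries, against 121 and 125 in LNCaP controls, and 38 and 57 counts in PC3 miR-375 libraries, against 113 and 92 in PC3 controls. Its changes were -1.11 ± 0.29 in LNCaP (adjusted p = 0.00239) and -1.20 ± 0.30 in PC3 (adjusted p = 0.00115). On the same strand, BUB1B shares 10.2% and CENPA 6.96% of exon bases with another gene, and 48 members share none. The largest shares on the opposite strand were in CENPP (42.7%), OIP5 (38%), CENPO (31.4%), CENPN (22.8%) and SGO1 (17.7%). The sources used here give neither the handling of reads in shared exons, nor the annotation, nor the strand setting. The part of shared exons in the counts was therefore not tested on either strand, and the values of PRC1 and NUSAP1 are uncertain.

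**Figure D4:**
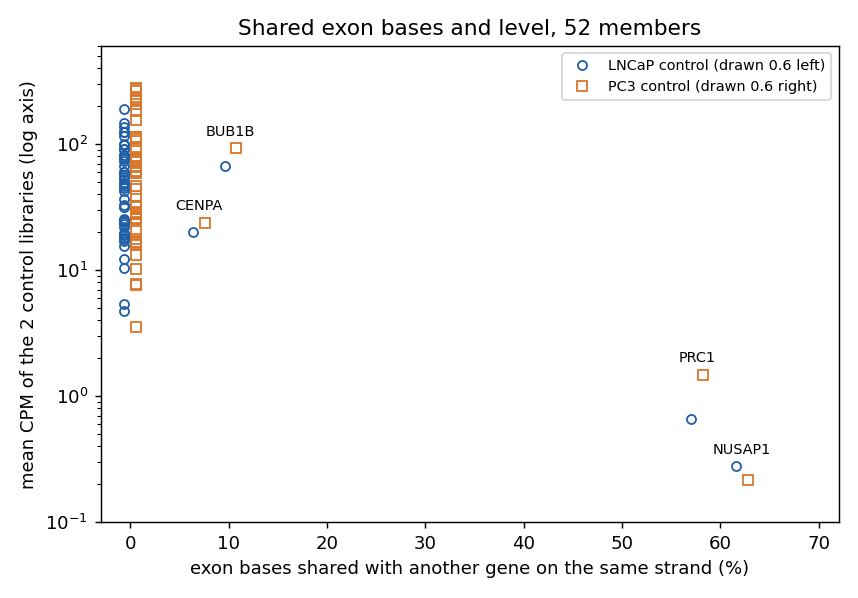
Mean CPM of the 2 control libraries (y axis, log scale) against the percent of exon bases that each of the 52 genes shares with another gene on the same strand (x axis), in LNCaP controls (circles, drawn 0.6 to the left) and PC3 controls (squares, drawn 0.6 to the right). PRC1 (57.6%) and NUSAP1 (62.2%) stand apart at the lower right. The 48 members that share no exon base on the same strand line up at 0.

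The fall was tested for a difference between the lines, as the LNCaP effect minus the PC3 effect. It was positive for 41 of the 52, and the median difference was 0.18, against -0.04 over all tested genes. The test was passed by 20 members, against 26.5% of all tested genes. A larger fall in PC3 passed the test in 19 members, where 10.9% of all tested genes passed as higher, and a larger fall in LNCaP passed in 1 member, MKI67, where 15.6% passed as lower. The clearest was ANLN, with a difference of 0.66 ± 0.07 (adjusted p = 5.99e-09). ZWINT and ECT2 followed with 0.43 ± 0.06 (adjusted p = 1.45e-06) and 0.48 ± 0.07 (adjusted p = 1.48e-06). CENPN, SKA2 and MIS18A differed by 0.72 ± 0.11 (adjusted p = 2.31e-06), 0.53 ± 0.09 (adjusted p = 3.28e-05) and 0.81 ± 0.15 (adjusted p = 9.11e-05). In the NDC80 complex, NUF2 and SPC24 differed by 0.70 and 0.46, and NDC80 by 0.29, while SPC25, at 0.43, did not pass (adjusted p = 0.0656). MKI67 differed by -0.31 ± 0.07 (adjusted p = 5.43e-04); this call was lost without LNCaP control 2 (-0.18) or LNCaP miR-375 replicate 1 (-0.20). With a single library left out, the BIRC5 call was lost without PC3 control 2 (0.16) or PC3 miR-375 replicate 2 (0.17), and that of CDC20 without PC3 control 1 (0.21), PC3 control 2 (0.19) or PC3 miR-375 replicate 1 (0.14). The NDC80 call was lost without LNCaP miR-375 replicate 1 (0.32), PC3 control 1 (0.28) or PC3 miR-375 replicate 1 (0.26). Leaving out PC3 miR-375 replicate 1 also ended the calls of CENPW (0.41) and TOP2A (0.18). Of these 8 fits, OIP5 passed only without LNCaP miR-375 replicate 2 or PC3 miR-375 replicate 1, and ran from 0.61 to 0.82 without each of the others. With limma-voom the calls of BIRC5 (0.18), CDC20 (0.19) and TOP2A (0.21) were lost as well, at adjusted p-values of 0.0510, 0.0501 and 0.0506.

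**Figure D5:**
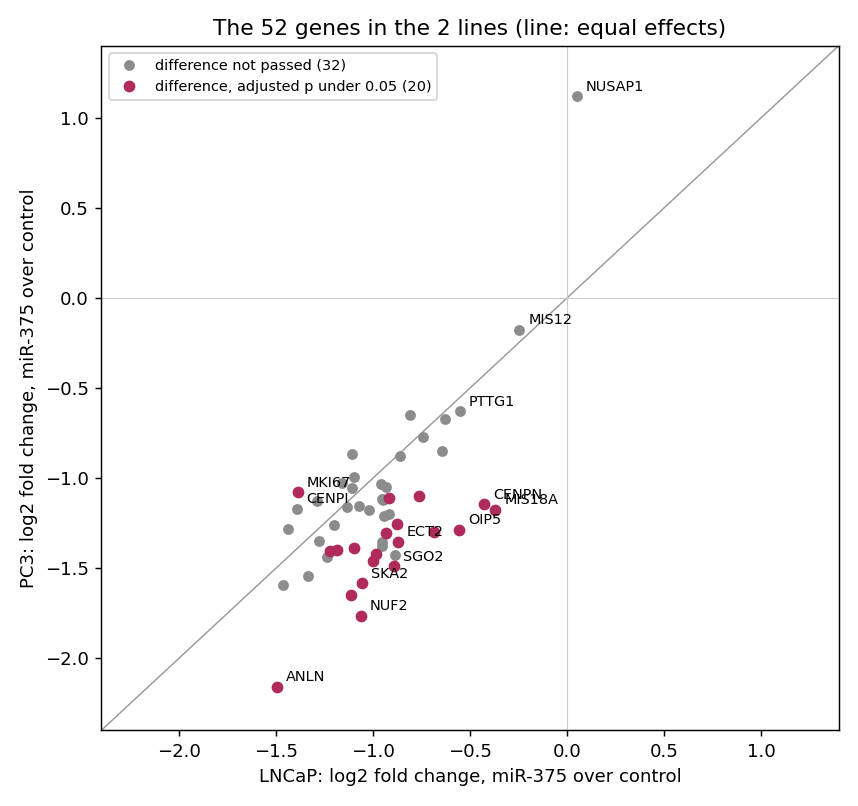
Log2 fold change of miR-375 over control in PC3 (y axis) against that in LNCaP (x axis) for the 52 genes, with the line of equal effects. Coloured points are the 20 genes that passed the test of the difference; 19 lie under the line, with a larger fall in PC3, and MKI67 lies above it.

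The control libraries show the level from which each line started. Of the 52, 14 were higher and 29 lower in LNCaP controls than in PC3 controls, and 9 did not pass; of all tested genes 41.2% were higher and 39.2% lower. The median of the 52 was -0.22, LNCaP control over PC3 control. Inner kinetochore genes lay on either side. CENPN was 4.03-fold higher in LNCaP controls, at 80.2 and 84.6 CPM, than in PC3 controls, at 19.8 and 21.0 CPM, whereas CENPL was 3.91-fold lower in LNCaP controls, at 18.7 and 19.5 CPM, against 73.3 and 76.4 CPM in PC3 controls. KNL1, the outer kinetochore scaffold on which checkpoint proteins assemble, was 4.05-fold lower in LNCaP controls, at 15.8 and 20.1 CPM, than in PC3 controls, at 73.6 and 72.1 CPM. All 4 cytokinesis genes were lower in LNCaP controls, and ANLN had a change of -1.79 ± 0.05 (adjusted p = 2.20e-28); the PRC1 call was lost with DESeq2 (-1.19) and without any 1 control library (-1.33 to -1.06), and that of RACGAP1 without PC3 control 2 (-0.14). Calls of 4 further members were lost in some settings: CDC20 (0.09 with DESeq2 size factors), CENPA (-0.26 with DESeq2), HJURP (-0.13 on library totals) and NDC80 (0.18 without LNCaP control 1). These controls also enter the effects of miR-375 above, so the comparisons share libraries.

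Members with a seed site in the 3′ UTR had a median change of -1.23 in LNCaP and -1.14 in PC3 (6 genes), against -0.95 in LNCaP and -1.21 in PC3 for the 46 without. Among the other tested genes the medians were -0.13 in LNCaP and -0.08 in PC3 with a site, against 0 in LNCaP and 0.03 in PC3 without. CENPO, with the 8mer, changed by -0.95 in LNCaP and -1.12 in PC3, close to the middle of the 52. SKA3 and MKI67, which carry 7mer-A1 sites, had falls of 1.44 and 1.39 in LNCaP on the log2 scale, while CENPL, which also carries one, fell by 0.64. In PC3 SKA3 changed by -1.28, MKI67 by -1.08 and CENPL by -0.85, where the median of all members was -1.19. ANLN, with the deepest falls, had no site of 7 or more bases in the 3′ UTR. Members whose promoter held a CHR word had medians of -0.95 in LNCaP and -1.26 in PC3 (28 genes), against -1.0 in LNCaP and -1.16 in PC3 for the 13 without. Neither sequence feature was tested for a link with the size of the fall.

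Beyond the 52, 74 further genes of the same processes were listed, of which 73 were tested; the checkpoint gene MAD1L1 was not, with 2 to 11 counts a library. In LNCaP, 45 of the 73 were lower and 6 higher with miR-375 (18.7% of all tested genes were lower and 13.9% higher), with a median of -0.32. In PC3, 49 were lower and 5 higher (20.8% of all tested genes were lower and 22.2% higher), with a median of -0.38. The 5 higher in PC3 were ZW10, ESCO1, CLASP1, NUMA1 and SEPTIN6, named after their values were seen. HASPIN, the kinase that places the passenger complex at centromeres, changed by -1.56 in LNCaP and -1.21 in PC3. KNTC1, of the corona's Rod-Zwilch-ZW10 complex, changed by -1.34 in LNCaP and -1.32 in PC3, while ZW10 of the same complex was higher. ZW10 had 37.9 and 38.4 CPM in LNCaP miR-375 libraries, against 28.6 and 26.5 CPM in LNCaP controls, a change of 0.47 ± 0.07 (adjusted p = 2.71e-06). ZW10 had 45.1 and 47 CPM in PC3 miR-375 libraries, against 28.1 and 28.9 CPM in PC3 controls, a change of 0.69 ± 0.07 (adjusted p = 3.03e-10); it was singled out after its values were seen. Of the anaphase-promoting complex and its partners (18 genes), 8 fell in LNCaP and 11 in PC3. The median of the 18 was -0.23 in LNCaP and -0.32 in PC3. The largest falls were in the inhibitor FBXO5 (-1.37 in LNCaP, -1.12 in PC3) and the E2 enzyme UBE2C (-1.02 in LNCaP, -1.38 in PC3). Of 13 cohesin genes, 8 fell in each line, with a median of -0.19 in LNCaP and -0.23 in PC3. The largest falls were in the acetyltransferase ESCO2 (-1.49 in LNCaP, -1.25 in PC3) and CDCA5, sororin (-1.37 in LNCaP, -1.13 in PC3). Of 14 further spindle genes, 11 fell in each line; NEK2, a centrosome kinase, changed by -1.02 in LNCaP and -1.19 in PC3, CKAP2 by -0.96 in LNCaP and -1.11 in PC3, and SPAG5, astrin, by -0.79 in LNCaP and -1.50 in PC3. Of 13 further cytokinesis and abscission genes 8 fell in each line, while 3 were higher in LNCaP and 1 in PC3. Their median change was only -0.10 in each line. CEP55 of the midbody changed by -1.09 in LNCaP and -1.47 in PC3, and the citron kinase gene CIT by -0.87 in LNCaP and -1.34 in PC3. The 8 other kinetochore subunits fell in 5 cases in LNCaP and in 6 in PC3, among them ITGB3BP, which encodes CENP-R (-0.61 in LNCaP, -0.86 in PC3).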

How the data were processed

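Poly(A) RNA of 8 libraries was read as stranded 150-base pairs, per the labels' protocols. The authors deposited 1 table of raw whole-number gene counts. Their tools included STAR 2.7.1a, featureCounts, fastp and DESeq2, and their genome was hg38, per the submitters' processing notes; the sources used here do not give the annotation, the strand setting or whether a count is a read or a pair, so overlapping and antisense genes and near-identical copies are uncertain. Between 68.1% and 70.3% of counts from 1 to 20 were even numbers, so counts halved and rounded up were tried. Of 60625 gene lines, 3 broken ones (279 counts) were left out, and 23834 of the rest had 0 counts everywhere. On the counts as deposited, chi-square over its degrees of freedom between replicates was 3.75 to 3.86, and none was treated as a duplicate. It was not computed on halved counts, so how far replicates differed beyond counting noise is uncertain. Limits for a count of 0 cover counting error only.

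Genes passing filterByExpr (21066) were fitted with edgeR 4.0.16 in R 4.3.3, with 1 mean for each of the 4 groups, which leaves 4 residual degrees of freedom (TMM, glmQLFit with robust estimation, glmQLFTest). Adjusted p-values are Benjamini-Hochberg over all tested genes, called under 0.05, and a standard error is the size of a log2 fold change divided by the square root of F. The fit was tested on simulated data. The 52 members and the other lists were chosen with earlier results of these data known. Every library's value is given for members with the largest change of their role in a line at 5 CPM or more in its controls, for those whose call differs between lines or is missing in both, and for the 6 with the smallest adjusted p for the difference between lines; of each other list, the 2 called genes with the largest change in a line are named, except 1 that is not reported here. Alternatives were DESeq2 size factors and its Wald test (DESeq2 1.42.0), library totals, no filter, limma-voom (limma 3.58.1), each line alone, a replicate block, leaving out each library and, chosen after seeing the data, leaving out NUSAP1 and PRC1. Gene coordinates, shared exons and 3′ UTRs come from GENCODE 29 (58515 of 60622 gene IDs matched), with 1 transcript a gene, the APPRIS principal one, then that with the longest coding sequence. MicroRNA and promoter sequences come from RefSeq (GRCh38.p14); 11 members without a promoter entry were not searched.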

Additional observations from a re-analysis of the deposited data

Results flagged for a closer look

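For 20 of the 52 genes the effect of miR-375 differed between the lines in the fit across all genes. Values are the LNCaP effect minus the PC3 effect on the log2 scale, so a positive value is a larger fall in PC3. Centromere and inner kinetochore genes were MIS18A (0.81), OIP5 (0.73), CENPN (0.72), CENPW (0.62) and CENPH (0.54). Outer kinetochore and Ska genes were NUF2 (0.70), SKA2 (0.53), SPC24 (0.46), ZWINT (0.43) and NDC80 (0.29). Of the checkpoint and passenger genes, CDCA8 differed by 0.37, BUB1 by 0.33, CDC20 by 0.19 and BIRC5 by 0.18. Cohesin and cytokinesis genes were ANLN (0.66), SGO2 (0.60), ECT2 (0.48) and ESPL1 (0.38). TOP2A differed by 0.21, and MKI67, with the larger fall in LNCaP, by -0.31. Of all tested genes, 26.5% passed this test in either direction.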

How the results depend on the processing

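Between 46 and 50 members were lower in LNCaP and between 48 and 51 in PC3 over all alternatives run, and none was higher. The median of the 52 in LNCaP was -0.83 on library totals, which shift the median of all genes in LNCaP by 0.12, -0.89 without the filter and -0.90 with counts halved (-0.95 to -0.91 with a library left out); in PC3 it was -1.11 on library totals (-1.24 to -1.17). The median difference between the lines was 0.24 with DESeq2 size factors and with its Wald test, 0.28 without the filter and 0.27 with counts halved (0.19 to 0.26 with a library left out), and larger falls in LNCaP passed in 0 to 2 members. The median of LNCaP control over PC3 control was -0.32 to -0.22 with a library left out and -0.20 on library totals. On library totals 2613 genes were lower and 4719 higher in LNCaP, against 3933 and 2927, and 9 other pathway genes were higher in PC3, against 5 (3 to 5 with a library left out). NUSAP1 in LNCaP turned to -0.0056 with limma-voom, and ran from -0.50 to 0.52 with a library left out, negative without LNCaP control 1 (-0.20) or LNCaP miR-375 replicate 2; the causes were not tested. Among single-gene values 2934 had the call of the main analysis, 78 lost and 7 gained it. Same-numbered libraries did not deviate together over all genes (r = 0.01 in LNCaP and 0.0035 in PC3). No pairing by number was seen, though this cannot exclude a shared culture or batch. With a replicate block in edgeR, 50 members were lower in each line. Larger falls in PC3 then passed in 17 members, against 19. The calls lost were those of BIRC5 (0.18, adjusted p = 0.0535) and CDC20 (0.19, adjusted p = 0.0557). Lower levels in LNCaP controls also lost their calls with the block for PRC1 (-1.01), CENPA (-0.15) and HJURP (-0.13). PRC1 and NUSAP1 had at most 59 counts in any library and CENPP few counts, which limits the precision of their changes.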
